A study of Homo sapiens with 2 samples.

Results

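The peaks described here are the NUDT21 eCLIP peaks that lie in 4 genes encoding heavy chains of cytoskeletal motors: DYNC1H1, the heavy chain of cytoplasmic dynein 1; MYH9 and MYH10, the heavy chains of nonmuscle myosin 2A and 2B; and MYO18A, an unconventional myosin related to them. A peak was taken as a member when its midpoint fell in the body of one of these genes in GENCODE v44. Of 20499 peaks in the deposited list, 68 met this rule, or 0.332%, with 21 in DYNC1H1, 18 in MYO18A, 10 in MYH9 and 19 in MYH10. The genes were chosen from the list itself, by the number of peaks in them and by how transcripts annotate those peaks, so the counts and the annotation classes are given as a description and not tested. The series held 2 libraries of J-Gamma1 cells, a PLCG1-deficient derivative of the T-cell acute lymphoblastic leukemia line Jurkat, 1 made with a NUDT21 antibody and 1 input. For both, cells kept on ice were crosslinked with UV light (254 nm, 400 mJ), lysis took 15 min, and RNase I (40 U) was applied for 5 min. Neither library is labelled with a drug or a further genotype change. The peak list belongs to the antibody library, a single replicate, and the input library itself was not analysed here. Without a replicate no peak has a measured error, and the intervals below are exact Clopper-Pearson 95% intervals on counts of peaks, which cover counting error only.

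NUDT21 is the small subunit of cleavage factor I, which binds UGUA in nuclear pre-mRNA and takes part in choosing where the 3′ end is cut and polyadenylated. In eCLIP, protein and RNA are crosslinked by UV light, the RNA is trimmed with RNase and the fragments recovered with an antibody are sequenced, so that a peak marks where such fragments pile up. Cytoplasmic dynein carries cargo toward the minus ends of microtubules, and its heavy chain holds the motor and the microtubule-binding stalk. Nonmuscle myosin 2 molecules assemble through long coiled-coil tails into filaments that pull on actin, and in T cells both motors take part in moving receptors and organelles at the contact with another cell. MYO18A has a myosin-like head and coiled coil and joins these filaments.

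Each peak carries a Score, a pileup height that in this list takes whole steps of 0.228, and a fold enrichment over the local background. The formula of the fold enrichment is not given in the sources used here. It was 1.17 in all member peaks of 1 step and 1.39 in all of 2 steps. It therefore did not rise in proportion to the Score and is not read here as a plain ratio of pileup to background. Heights are given below in steps. The 68 member peaks had a median of 8 steps (range 1 to 12), against 3 in the whole list, whose highest peak had 45. Of the member peaks, 62 reached 5 steps, while 42.3% of all peaks did. Coding peaks of other genes had the same median of 8 steps, with 82.2% at 5 or more. The 56 member peaks in coding sequence also had a median of 8, with 98.2% at 5 or more. The typical height was thus not particular to the members, though a smaller share of their coding peaks was low. Fold enrichment ran from 1.17 to 3.01 with a median of 2.46, and the median length was 82.5 nt (range 48 to 467 nt). The deposited p-values of the members lay between 1.78e-05 and 0.0469, but the deposited FDR was 1 for all 68, and 0.0927% of all peaks had an FDR under 0.05. The methods state a q-value threshold of 0.05 for peak calling, which disagrees with this column, so what the FDR values mean is unclear. The file gives no strand, so a peak was read on the strand of its gene. For 12 peaks the midpoint also lay in an intron of an overlapping gene: 7 of DYNC1H1 and 1 of MYO18A in unnamed genes, and 4 of MYH10 in NDEL1. Sequencing depth is unknown.

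DYNC1H1 spans chr14:101964573-102056443 on the plus strand (hg38). Its canonical transcript has 78 coding exons and 4646 codons. Peaks are numbered from the 5′ end of each gene. Peak 1, in an intron, stood at 1 step. The other 20 had their midpoints in 20 different coding exons between exons 5 and 70, with 6 to 10 steps. They were not evenly spaced: 5 lay in exons 5 to 11, none in the 17 exons from 12 to 28, and 7 in the exons from 58 to 70. These stretches were picked from the peaks themselves, and if the spacing departs from a random scatter over exons was not tested. Exon 8, which has the longest coding part at 1077 nt, held a single peak. The highest by the order of Score and then fold enrichment were peak 17 in exon 61 at codon 3857, with 10 steps and a fold enrichment of 2.99, peak 11 in exon 48 at codon 3147, with 10 steps and 2.54, and peak 3 in exon 6 at codon 341, with 10 steps and 2.45. The canonical 3′ UTR of 5880 nt held no peak. In 3 of the coding peaks the gene strand read UGUA, written TGTA in the genome. The windows of peaks 4 and 10 are shown because UGUA is the sequence that cleavage factor I is known to bind (capitals mark it):
DYNC1H1 peak 4, exon 8 (chr14:101986708-101986737, plus strand): aacttgacccataTGTAcagcgcttagcag
DYNC1H1 peak 10, exon 40 (chr14:102017448-102017477, plus strand): gtttgttggggctTGTAatccccccacaga
Peak 4 had 10 steps and peak 10 had 6. The intronic peak 1, with 1 step, also held UGUA.

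MYO18A spans chr17:29071122-29180398 on the minus strand, with 41 coding exons and 2054 codons. Of its 18 peaks, 14 reached 5 steps, and the 4 that did not, peaks 1, 14, 15 and 16, had their midpoints in introns of the canonical transcript at 1 or 2 steps. Of the 14, 13 had their midpoints in 13 different coding exons from exon 6 to exon 42. The first coding exon, which has the longest coding part of the gene at 999 nt, held none. The last of the 14, peak 18 (chr17:29074206-29074254), was the highest, with 10 steps and a fold enrichment of 2.75. It lay in the canonical 3′ UTR, 540 nt after the stop codon and 3108 nt before the end of the transcript. Next came peak 3 in exon 13 at codon 770, with 9 steps and 2.46, and peak 8 in exon 24 at codon 1282, with 9 steps and 2.37. The 3′ UTR peak and 1 coding peak held UGUA:
MYO18A peak 7, exon 23 (chr17:29098930-29098959, minus strand): tggccattcgctgTGTAcagaagaacatca
MYO18A peak 18, 3′ UTR (chr17:29074220-29074249, minus strand): agtgggagggggcTGTAgtggtagctgggg
Peak 7, with 6 steps, was among the lower peaks of the gene that reached 5 steps.

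MYH9 spans chr22:36281280-36388010 on the minus strand, with 40 coding exons and 1960 codons. All 10 of its peaks touched a coding exon, and all had 8 to 11 steps, so MYH9 had none of the low intronic peaks of the other genes. The highest were peak 8 in exon 30 at codon 1334, with 11 steps and a fold enrichment of 2.83, peak 3 at the end of exon 12, with 11 steps and 2.62, and peak 5 in exon 19 at codon 783, with 10 steps and 2.86. The longest stretches without a peak covered 7 exons each, from 23 to 29 and from 33 to 39. No MYH9 peak held UGUA on the gene strand, and the 3′ UTR of 1388 nt held no peak. The coding sequence of MYH9 had the fewest UGUA of the 4 genes, with 2 in the 5284 nt outside peaks.

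MYH10 spans chr17:8474207-8631376 on the minus strand, with 42 coding exons and 2007 codons. Of its 19 peaks, 13 had the midpoint in 13 different coding exons and 4 more had it in an intron but reached a coding exon (peaks 5, 9, 13 and 17, with 6 to 10 steps). Peak 19 (chr17:8474653-8474723), with 8 steps, lay in the 3′ UTR, 1116 nt after the stop codon and 464 nt before the end of the transcript. Peak 6, an intronic peak of 467 nt, had 1 step. The highest member peak of all was peak 2 in exon 12 at codon 417, with 12 steps and a fold enrichment of 3.01. Peak 11 in exon 23 followed with 11 steps and 2.72, and then peak 7 in exon 18 with 10 steps and 2.86. The lowest p-value among the members belonged to peak 13, at 1.78e-05 with 9 steps. UGUA fell in the exon part of these peaks:
MYH10 peak 7, exon 18 (chr17:8521102-8521131, minus strand): taactttgttcgtTGTAtcattccaaatca
MYH10 peak 9, exon 21 (chr17:8518747-8518776, minus strand): ttggacccaaactTGTAcagaattggacag
Peak 11 held its UGUA in the intron beyond exon 23, and peak 9, which runs from exon 20 across the intron into exon 21, held 2 more in that intron.

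**Figure D1:**
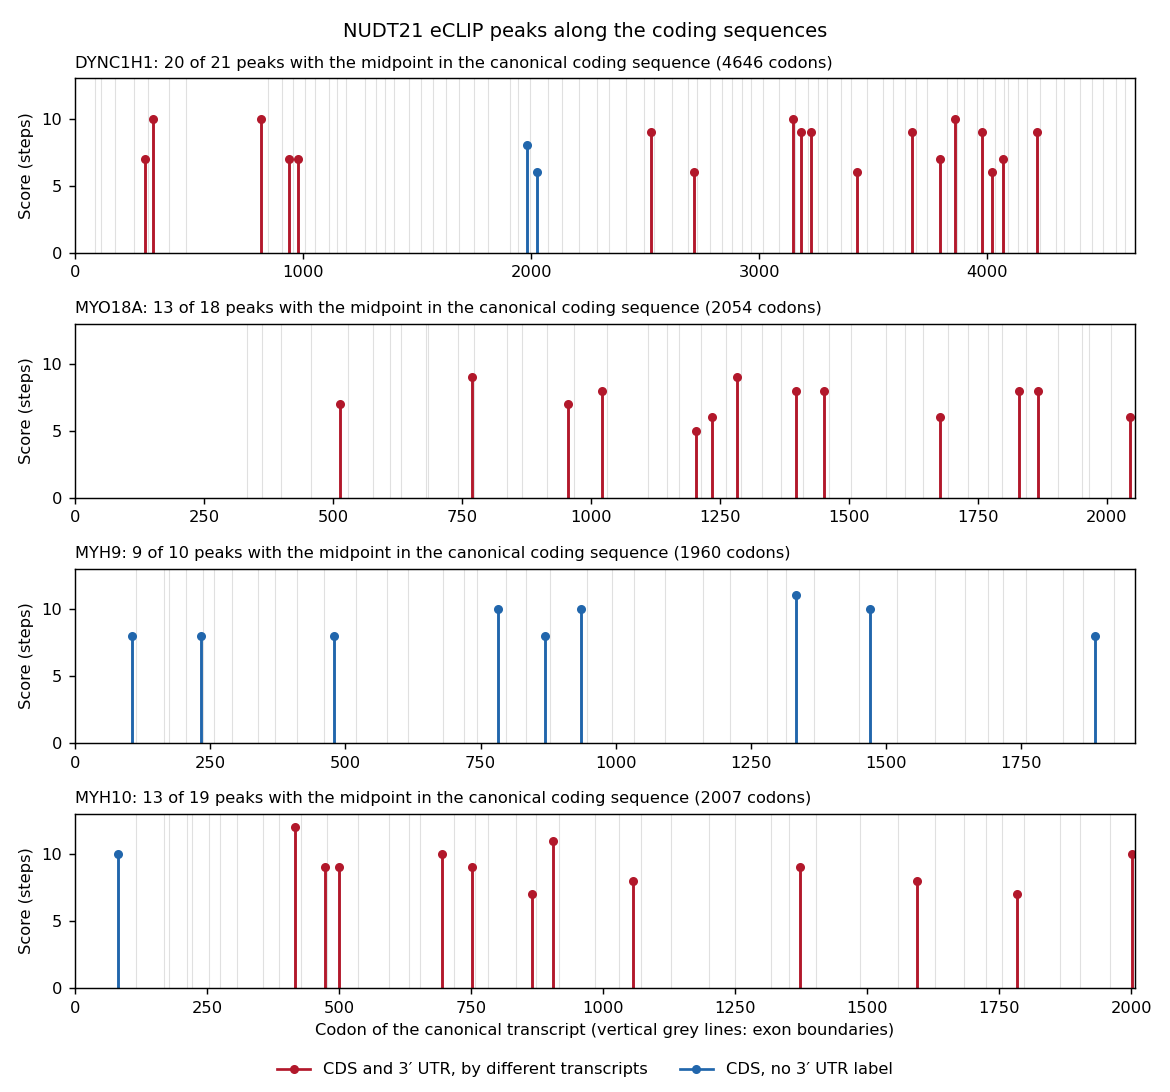
Peaks along the canonical coding sequences of the 4 genes, with the codon of the peak midpoint on the x axis and the Score in steps of 0.228 on the y axis. Each line is 1 peak, coloured by whether another transcript annotates the midpoint as 3′ UTR, and 55 of the 68 peaks are drawn. The MYH9 peaks are all of 1 colour, while all but 2 DYNC1H1 peaks and all but 1 MYH10 peak have the other.

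The coding exons were thus marked singly. Of 201 coding exons in the 4 genes, 55 held a peak midpoint, or 27.4% (21.3% to 34.1%), and the coding part of none held more than 1. By gene the share was 25.6% in DYNC1H1, 31.7% in MYO18A, 22.5% in MYH9 and 31% in MYH10, and the intervals overlapped. When every coding exon touched by a peak was counted, there were 61. The share of coding exons with a peak in other genes is not given here. As the members were chosen by their number of peaks, these shares are description only. Exons with a midpoint had a median of 153 nt and the others 142.5 nt. Heights differed little between the genes: the median was 8 steps in DYNC1H1, 7 in MYO18A, 9 in MYH9 and 9 in MYH10, and the median fold enrichment 2.42, 2.37, 2.48 and 2.67 in the same order. Fold enrichment varied at a fixed height, and the reason was not tested. At 8 steps the 14 member peaks ranged from 2.11 to 2.68.

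How a peak in these genes was classed depended on which transcript was read. Of the 68 midpoints, 43 lay in the coding sequence of some transcripts and in the 3′ UTR of others, 13 in coding sequence with no 3′ UTR label, 2 in 3′ UTR alone, 3 in noncoding exons and 7 in introns. The 45 with a 3′ UTR label were 18 in DYNC1H1, 14 in MYO18A, none in MYH9 and 13 in MYH10. In 42 of the 45 the label came from nonsense-mediated decay (NMD) transcripts alone, isoforms whose reading frame is annotated to stop early, so that later exons count as 3′ UTR. The exceptions were MYO18A peaks 17 and 18 and MYH10 peak 19. GENCODE lists 24 such transcripts for DYNC1H1, 2 for MYO18A, 2 for MYH10 and none for MYH9. In MYO18A a single NMD transcript held 14 peaks in its 3′ UTR, and in MYH10 each of the 2 held 13. In DYNC1H1 the number of transcripts behind the label varied along the gene: peaks 2 to 6 were coding in 30 transcripts and 3′ UTR in 2, peaks 7 and 8 were 3′ UTR in none, peaks 9 and 10 in 1, and peaks 11 to 21 in 4 to 10. When a 3′ UTR label in any transcript took precedence, 66.2% of the member peaks were 3′ UTR and 19.1% coding. With the canonical transcript alone these shares were 2.94% and 80.9%, without NMD transcripts 4.41% and 80.9%, and with coding sequence first 2.94% and 82.4%. Among the 56 member peaks in coding sequence of any transcript, 76.8% (63.6% to 87%) also had a 3′ UTR label, against 28% of 6264 coding peaks in all other genes. The genes were chosen partly by these labels, so this difference is no independent result.

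**Figure D2:**
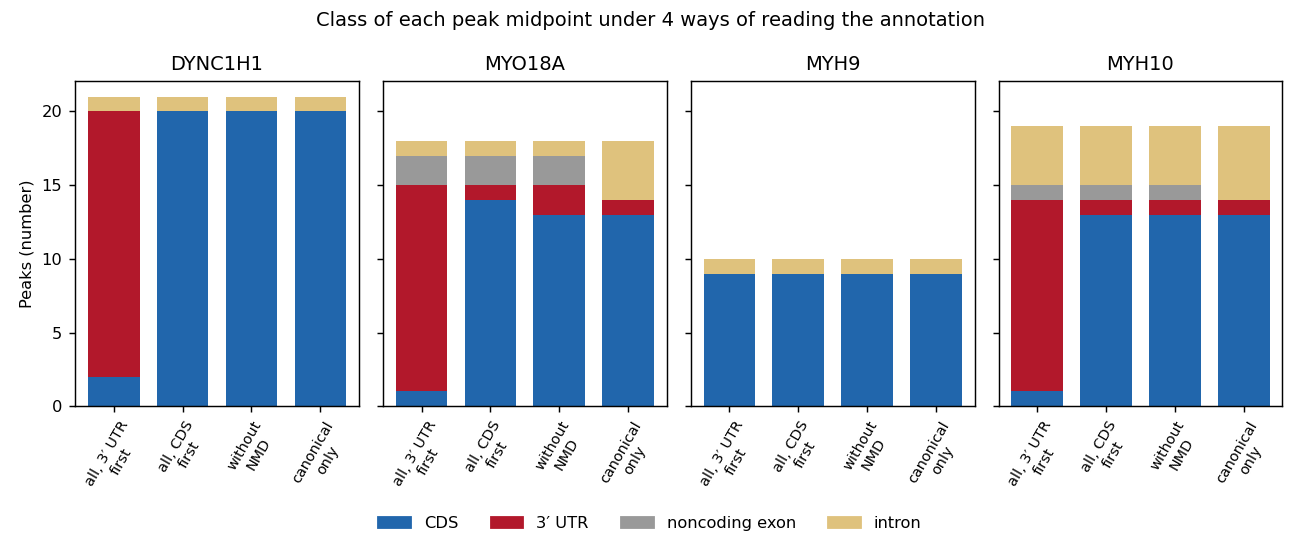
Number of peaks (y axis) in each class of annotation for the 4 genes, when a 3′ UTR label in any transcript comes first, when coding sequence comes first, without NMD transcripts and with the canonical transcript only. The 3′ UTR class of DYNC1H1 falls from 18 peaks to none, that of MYH10 from 13 to 1 and that of MYO18A from 14 to 1 with the canonical transcript, and MYH9 has none under any rule.

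Within exons the peaks leaned toward the 3′ end. Of 58 member peaks that touched an internal exon of the canonical transcript, 44 had the midpoint beyond the middle of the exon, or 75.9% (62.8% to 86.1%), against 64.2% in other genes and 70.2% among peaks of 5 or more steps there. Of the 58, 33 ran over the exon's 3′ end into the intron, or 56.9% (43.2% to 69.8%). In other genes this held for 44.2% of 6749 such peaks, a share inside the interval of the members. Only 1 member peak ran over a 5′ start, or 1.72% (0.0436% to 9.24%), compared with 19.3% in other genes. All 58 had 5 or more steps, and among other genes' peaks of that height the share at the 5′ start was 4.57%, again inside the interval. Peaks of that height in other genes ran over the 3′ end in 41.9%, so the asymmetry between the exon ends was not particular to the members. Over the 3′ end ran 8 of 20 peaks in DYNC1H1, 8 of 12 in MYO18A, 6 of 10 in MYH9 and 11 of 16 in MYH10. The crossing was short: 31 of the 33 reached at most 36 nt into the intron, and the exceptions were MYH10 peaks 9 and 13, with 241 and 299 nt. In 32 of the 33 the intron began with GT, and in DYNC1H1 peak 21 with GC. The length by which the peak caller extended or shifted reads was not given in the sources used here, so its part in the position of peak edges was not tested.

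The exon ends under the peaks are shown to place these edges, with 15 bases of exon followed by 15 of intron and the first intron bases in capitals. The first 4 lines give 1 of the 3 highest peaks of each gene that cross an exon end, and the last the GC intron.
DYNC1H1 peak 17, exon 61 (chr14:102039532-102039561, plus strand): aaggacctcttccagGTagagtgaggtcct
MYO18A peak 8, exon 24 (chr17:29098341-29098370, minus strand): cggctggagagccggGTgagtgactcctgg
MYH9 peak 5, exon 19 (chr22:36303980-36304009, minus strand): ctacctggccaggaaGTgagtcccgggaga
MYH10 peak 2, exon 12 (chr17:8546529-8546558, minus strand): cagaccaaagaacagGTaggtttcatgttc
DYNC1H1 peak 21, exon 70 (chr14:102044031-102044060, plus strand): gatgacacggccaagGCaagtgtgggccat
DYNC1H1 peak 17 and MYO18A peak 8 each ended 2 nt into the intron, MYH10 peak 2 ended 12 nt into it and MYH9 peak 5 ended 28 nt into it. DYNC1H1 peak 21 ended 18 nt into its intron.

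**Figure D3:**
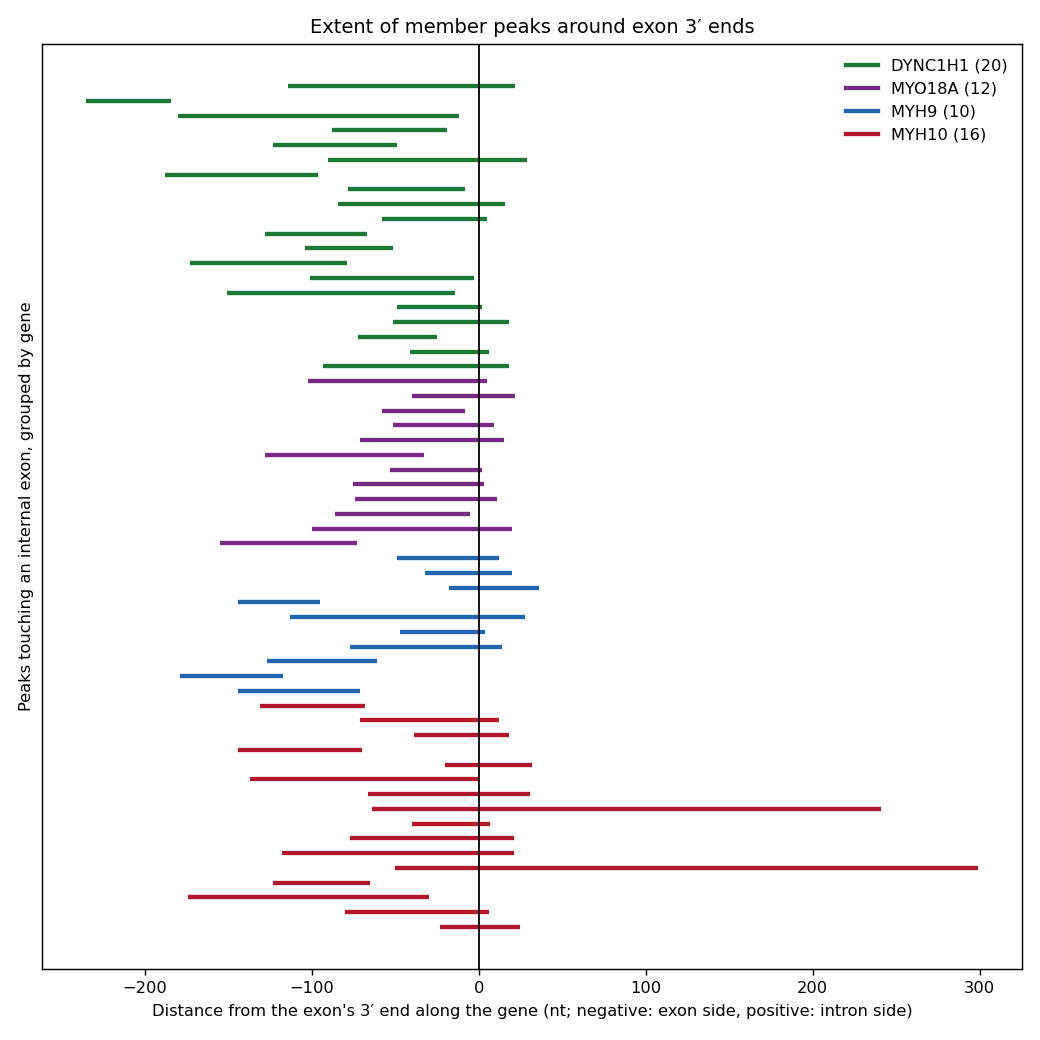
Extent of the 58 peaks that touch an internal exon, in nt from the exon's 3′ end (x axis, 0 at the exon end, intron to the right), one line per peak grouped by gene. Of these, 33 cross 0 and 38 end within 30 nt of it, and 2 MYH10 peaks reach 241 and 299 nt into the intron.

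UGUA was found in a minority of these peaks, with no share of the whole list to set beside it. On the gene strand it occurred in 13 of 68, or 19.1% (10.6% to 30.5%), with 4 in DYNC1H1, 5 in MYO18A, none in MYH9 and 4 in MYH10, while on the opposite strand it occurred in 21, or 30.9%. Of the 13, 5 were among the 6 member peaks under 5 steps, whose median length was 328.5 nt against 75 nt for the 62 others. Among the 56 peaks in coding sequence, 6 held UGUA, or 10.7% (4.03% to 21.9%), compared with 21.2% of the coding peaks of other genes, a share inside that interval. At 5 or more steps the share was 10.9% (4.11% to 22.2%) in the members and 18.8% in other genes. MYH10 peak 11, counted among the 6, held its UGUA in the intron. Over all coding peaks the median length was alike, 80.5 nt in the members and 82 nt elsewhere. The median GC content was 55.4% in the members and 49.1% elsewhere. Base composition therefore moved with the motif, and its part in the difference was not tested. Within the members' own coding sequence UGUA was about as frequent inside peaks, with 1.32 per kb (6 in 4552 nt), as outside, with 1.2 per kb (33 in 27449 nt), and the GC content was 53.9% and 54%. A match to these letters describes the window and does not show where NUDT21 was crosslinked.

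MYH9 and MYH10 allow a comparison between related genes. Their coding sequences aligned over 1959 residues, of which 78.6% were identical, and 40 coding exons could be paired, 37 of them of the same length. A peak touched 10 of these exons in MYH9 and 18 in MYH10. Both genes had a peak in 6 pairs, which is 60% of the MYH9 exons with a peak, beside 45% of all paired exons with one in MYH10, and 33.3% of the MYH10 exons with a peak, beside 25% of all paired exons with one in MYH9. In 5 of the 6 pairs the peaks overlapped when placed by distance from the exon's 3′ end, by 37 to 105 nt, and in exon 2 of both genes they did not. The exons of these 5 pairs are only 132 to 174 nt long, and peaks of other genes also leaned toward exon 3′ ends. Some overlap is therefore likely whenever both exons of a pair hold a peak. The overlap to be expected was not computed, so the 5 pairs are description only. Peak heights differed within pairs without a fixed order: in exons 30 and 32 MYH9 had 11 steps and MYH10 9, and in exons 21 and 23 MYH9 had 8 and MYH10 11. Overlap in position went with anything from near identity to clear divergence of sequence, as the middles of 2 of the shared stretches show (capitals mark the bases that differ, and the first pair crosses from exon into intron):
MYH9 exon 12 (chr22:36316502-36316531, minus strand): ttCgaGatCtttgaTgtGAGcCtTGccctT
MYH10 exon 13 (chr17:8545433-8545462, minus strand): ttTgaAatTtttgaGgtATTcTtCCccctC
MYH9 exon 13 (chr22:36314250-36314279, minus strand): gagaagctgcagcagctCttcaaccacacc
MYH10 exon 14 (chr17:8542212-8542241, minus strand): gagaagctgcagcagctGttcaaccacacc
Of the 30 bases, 19 were identical in the first pair and 29 in the second. The search found no perfect match of 30 nt or more between a peak of either gene and a transcript of the other. It kept only alignments free of mismatches, so an exact stretch inside a longer imperfect alignment could be missed. The members for which it found such a match to another gene were DYNC1H1 peak 1, in many genes, and MYH10 peak 15, in NDEL1 on the opposite strand. The NDEL1 match was 42 nt long. NDEL1 overlaps MYH10, so this match can be the same genomic bases read on the other strand and not a sequence that occurs in 2 places. As the file gives no strand, which of the 2 genes peak 15 came from cannot be told apart.

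**Figure D4:**
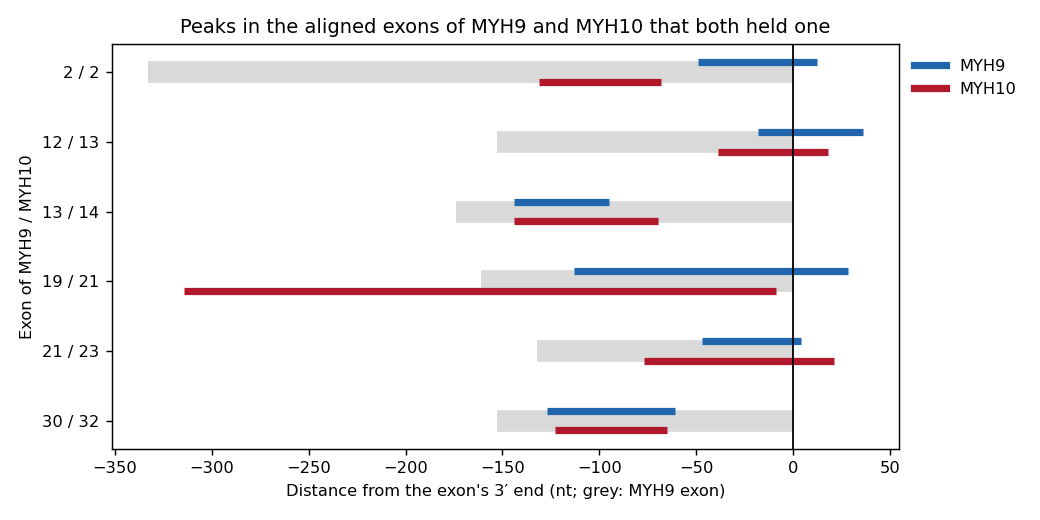
The 6 pairs of aligned exons in which both MYH9 and MYH10 had a peak (y axis, exon numbers), with each peak drawn by its distance from the exon's 3′ end in nt (x axis) and the MYH9 exon in grey. The peaks overlap in 5 of the 6 pairs, and the MYH10 peak in exon 21 begins upstream of the exon.

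Counted per length, exonic peaks, those with the midpoint in an exon of any transcript, were dense in all 4 genes. The genes were chosen by their number of peaks, so a high density was to be expected and is no independent result. MYO18A had 2.76 per kb of coding sequence, MYH10 2.49, MYH9 1.53 and DYNC1H1 1.43, which placed them at ranks 15, 16, 53 and 57 of 771 genes with a coding sequence of 5000 nt or more. Of the other 767, 41.2% had an exonic peak, and the upper quartile was 0.37 per kb. Among the 316 of them with an exonic peak it was 0.912 per kb. IGF2R had the most, with 4.28. The counts rest on 17, 15, 9 and 20 peaks, of which 3 in MYO18A stood at 1 or 2 steps. They include peaks outside the canonical coding sequence, though only coding length is divided by. Midpoints in that sequence numbered 13 in MYO18A, 13 in MYH10, 9 in MYH9 and 20 in DYNC1H1. With peaks of 5 or more steps only, MYO18A had 2.27 per kb, below MYH10 at 2.49. Each density rests on 1 library and no spread between samples is known, so the order of neighbouring genes has no error to set it against. Beside MYO18A and MYH10 stood the chromatin remodeller CHD3 and the nuclear pore protein NUP210, both with 2.83, the receptor NOTCH1 with 2.48 and the spectrin SPTAN1 with 2.42. Beside MYH9 and DYNC1H1 stood SETD2 with 1.56, YLPM1 with 1.55, PHF3 with 1.47, PHIP with 1.46, AKAP11 with 1.4 and FAT1 with 1.38. The amount of each mRNA in the cells was not used here, so its part in these densities was not tested.

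**Figure D5:**
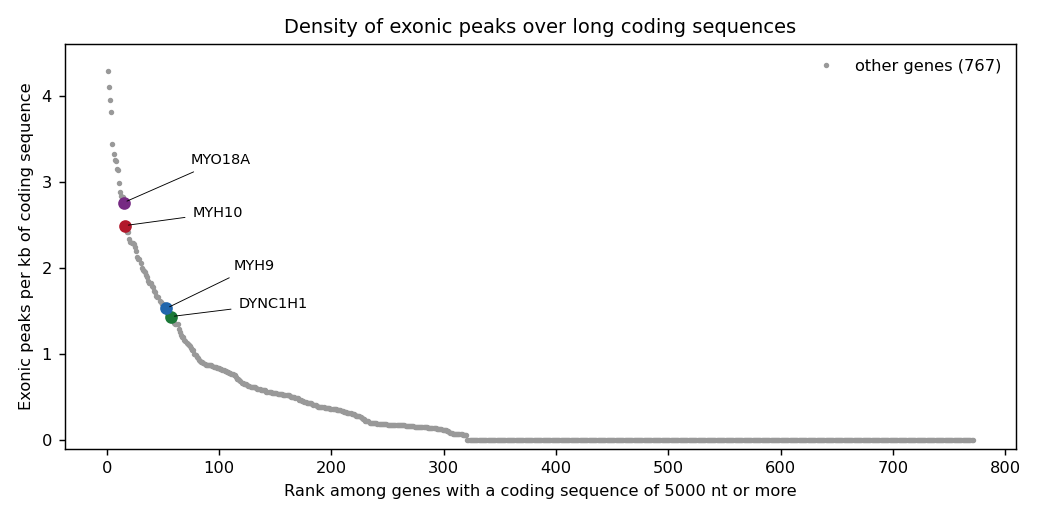
Exonic peaks per kb of coding sequence (y axis) for 771 genes with a coding sequence of 5000 nt or more, ordered by that value (x axis). The 4 members, in colour, lie between 1.43 and 2.76, and 451 of the other genes lie at 0.

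Other genes of the same machines are given by count. Over all protein-coding genes 22.6% had an exonic peak. The share of all genes with one of 5 or more steps is not given here, so counts at that height have no base to set them against. Of 32 further genes of cytoplasmic dynein, dynactin and their adaptors, 13 had one, and 8 had one of 5 or more steps. DCTN1, the large dynactin subunit, and PAFAH1B1, the dynein regulator LIS1, had 6 each, with highest peaks of 9 and 10 steps. Of 35 other myosin heavy chain genes, 6 had an exonic peak, and only MYO9B reached 5 steps, with 6. MYO9A had 5 peaks and MYO5A had 3, none above 3 steps. Among 14 myosin light chains and regulators of nonmuscle myosin 2, 12 had no exonic peak. Of the others, PPP1R12A, the targeting subunit of myosin phosphatase, had 3 and the kinase gene ROCK1 had 2. Of 13 axonemal dynein heavy chains, which drive cilia, 2 had a single peak of 1 step each. Among 22 kinesins, the motors that mostly move toward microtubule plus ends, 15 had an exonic peak and 12 had one of 5 or more steps, led by KIF5B with 16 and the mitotic kinesin KIF11 with 7. Of 13 T-cell marker genes 5 had an exonic peak, among them CD3E and BCL11B, and none of 5 B-cell or 4 myeloid markers did.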

How the data were processed

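Peaks of the NUDT21 antibody library were analysed, and the labels gave the groups. According to the methods, the authors trimmed reads with fastp, removed duplicates by molecular identifier, removed ribosomal RNA reads, mapped to hg38 and called peaks with MACS2, using background windows of 1000 and 10000 nt. Which aligner was used, and if the input was the control for peak calling, is not given in the sources used here. The deposited columns hold a Score, whose values behave as a pileup signal in steps of 0.228, a fold enrichment (formula not given), a p-value and an FDR (q-value). No test across peaks was run on these values.

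Midpoints were placed in GENCODE v44 genes with Python 3.11.15, and sequences were read from hg38 with pysam 0.24.0. The main rule gave a midpoint the class 3′ UTR, 5′ UTR, coding, noncoding exon or intron, in that order, over all transcripts. Canonical transcripts gave exon numbers and codons. MYH9 and MYH10 proteins, translated from these transcripts, were aligned globally (biopython 1.88, BLOSUM matrix, gap penalties 11 and 1). Shared stretches were searched with blastn 2.17.0 (word size 28, exact matches). Intervals used scipy 1.17.1. Placement was tested on simulated data, and all 400 placed peaks were recovered. The genes, the rule (all 4 members, their 3 highest peaks, at most the 6 genes of each list with the most exonic peaks, and 2 neighbours on either side in peaks per kb) and the lists were chosen with earlier results of these data known. Some neighbouring genes and sequence windows that fall under these rules are not reported here.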

Additional observations from a re-analysis of the deposited data

How the results depend on the processing

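Of 81 values recomputed under other settings, 65 stayed within the counting error or within 1.5 times the value given above, and 16 moved. With the deposited FDR under 0.05, no member peak remained (0 peaks, 0 coding exons, 0 per kb), against 68, 55 and 1.91. The 3′ UTR share of 66.2% became 2.94% with coding sequence first or with the canonical transcript only and 4.41% without NMD transcripts. The coding share of 19.1% became 82.4%, 80.9% and 80.9% under the same settings. The share of peaks with UGUA, 19.1%, became 38.2% when each peak was extended by 50 nt and 30.9% on the opposite strand. The median density of long genes was 0 per kb over all of them and 0.516 over those with an exonic peak. Keeping peaks of 5 or more steps, or of fold enrichment 2 or more, left 62 and 59 peaks. The settings for exon edges were chosen after seeing the data and moved no share past its interval. All 58 internal-exon peaks already had 5 or more steps, so that setting could not change these shares. The share over the 3′ end was 56.9%, or 57.1% with fold enrichment of 2 or more. This stability therefore says little about how robust the shares are. No paired analysis was possible because the series has 1 peak list. Depth and replicate error are unknown.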
